A study of Drosophila melanogaster with 10 samples.

Results

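The oeno>fru IR-3 genotype carried a hairpin against fruitless (fru), from stock VDRC105005 of the Vienna collection, under an oenocyte driver. Its 2 libraries, named by columns for that stock, were compared with the 2 control libraries, which makes 4 of the 10 libraries of the series, over the 11472 of 13986 listed genes that passed a filter on low counts. RNA-seq of polyadenylated RNA was made from adult Drosophila melanogaster oenocytes dissected 7 days after eclosion, with 25°C until eclosion and 29°C afterwards, 60% relative humidity and a light period of 12 hours in every group. The flies were males according to the study's methods. Both groups carried the prom-E800-Gal4 driver (oeno-Gal4), whose promoter fragment is active in oenocytes. The control added a UAS-mCD8-GFP reporter and no hairpin, and oeno>fru IR-3 added the hairpin transgene, for which the labels give no reporter. The hairpin, the reporter and the genetic background of the stocks therefore changed together, and their parts in any difference below cannot be told apart. The labels do not say whether the 2 libraries of a genotype came from separate groups of flies, though the study calls them biological replicates. The p-values therefore measure the spread between these libraries, which may be technical. The series also holds 2 other fru hairpin lines, oeno>fru IR-2 (stock 31593) and oeno>fru IR (stock VDRC330035). It holds as well oeno>fru OE, which overexpresses a fru isoform common to both sexes according to the study. Each has 2 libraries, used only where a value of oeno>fru IR-3 is set beside theirs.

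Oenocytes are large cells beneath the abdominal cuticle that make the hydrocarbons of the body surface, which limit water loss and serve as sex pheromones. Fatty acid synthases build the first acyl chain, elongases and their partner reductases and dehydratases lengthen it, desaturases set double bonds, fatty acyl reductases turn the acyl chain into an aldehyde or alcohol, and the cytochrome P450 Cyp4g1 with its reductase Cpr removes the terminal carbon to leave a hydrocarbon. The gene fru encodes BTB-zinc finger transcription factors. Its male-specific isoforms act in neurons of courtship, and isoforms common to both sexes are made outside the nervous system. The comparison asks what changes in oenocyte RNA when this hairpin is expressed there.

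Counts assigned to genes totalled 27225089 and 34243324 in the control libraries, and 34190089 and 29300913 in the oeno>fru IR-3 libraries. Levels are given as CPM, the usual library-size-scaled counts, after TMM scaling of the 4 libraries, in the order replicate 1 and replicate 2. A typical gene differed little between replicates, with a median absolute log2 difference of 0.0814 between the control libraries and 0.0843 between the oeno>fru IR-3 libraries. One set of genes stood apart. Digestive enzyme genes of the gut, such as trypsins, Jonah proteases, maltases and amylases, were higher in oeno>fru IR-3 replicate 2 than in replicate 1 for 52 of 57 tested members, and 40 of the 57 were at least 2-fold higher, against 2.12% of all genes tested. Their summed level was 834 and 847 CPM in control and 2780.0 and 3554 CPM in oeno>fru IR-3. One maltase gene, Mal-B2, described below, made up a large part of that sum, and the other 56 genes summed to 458 and 460 CPM in control and 937 and 1690 CPM in oeno>fru IR-3. Because of the difference between the replicates, lists against control are also described without replicate 2 of oeno>fru IR-3. Oenocyte markers were abundant in all 4 libraries, with a summed level of 121017 and 121333 CPM in control and 173434 and 170347 CPM in oeno>fru IR-3. Cyp4g1 made up most of that sum. Of the 12 markers tested, 7 were called higher and 3 lower, against 26.0% and 26.7% of all genes tested. That lean depended on the scaling, as a fit without TMM factors called 5 markers higher and 4 lower. Hnf4 and Cpr, given below, were not called in that fit. The markers salm and eloF, given below, fell. Cyp4g1, the P450 that defines the hydrocarbon-producing oenocyte, counted 102072 and 102343 CPM in control and 149606 and 146768 CPM in oeno>fru IR-3, and svp, a nuclear receptor of the oenocyte lineage, counted 171 and 175 CPM in control and 166 and 169 CPM in oeno>fru IR-3. In dissected tissue, fewer cells of a type and less RNA per cell cannot be told apart.

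The targeted gene was lower in both hairpin libraries. In the annotation of build BDGP6.54 the fru gene (FBgn0004652) lies on chromosome 3R from 18414273 to 18545586, minus strand. It counted 11.4 and 11 CPM in control and 6.97 and 6.96 CPM in oeno>fru IR-3, so both oeno>fru IR-3 libraries lay below both control libraries. The groups did not overlap, in either direction, for 8772 of the 11472 genes tested. For fru the log2 fold change was -0.68 (SE 0.08, adjusted p = 0.00013 from edgeR's quasi-likelihood test), and -0.67 without replicate 2. About 62.2% of the control level therefore remained in these libraries. The counts hold 1 value per gene, so the isoforms common to both sexes and the male-specific ones cannot be told apart here. On the deposited TMM-rescaled TPM values with a pseudocount of 1, limma gave a smaller change of -0.34. Of 6 genes of the RNA interference and microRNA machinery, all given here, 1 was called higher and 2 lower, and AGO1 and loqs are named after their values were seen. Dcr-2, the dicer of small interfering RNAs, counted 47.1 and 47.2 CPM in control and 51.9 and 48.2 CPM in oeno>fru IR-3 and was not called, and neither were the Argonaute genes AGO2 (0.04) and AGO1 (0.02), whose signs turned with library size alone. The partner of Dcr-2, r2d2, counted 59.9 and 57.9 CPM in control and 42.1 and 40.1 CPM in oeno>fru IR-3, a fall of 0.52 on the log2 scale (adjusted p = 1.7e-05 from edgeR). The dsRNA-binding protein gene loqs was called lower at -0.19 and Dcr-1, the dicer of microRNAs, higher at 0.33.

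Of the genes tested, 6046 passed the test in either direction, many of them with small changes. At an adjusted p under 0.05, 2981 of the 11472 genes tested passed with a higher level in oeno>fru IR-3, which is 26.0%, and 3065 were called lower, which is 26.7%. The median absolute log2 fold change of the called genes was 0.481. Of the called genes, 587 rose by at least 2-fold, 415 fell by at least 2-fold, and 1216 changed by less than 1.2-fold. When library size alone replaced TMM, 2371 genes were called higher and 3861 lower, so the balance of higher and lower calls depends on the scaling. A DEG was set at an adjusted p of at most 0.001 with at least a 4-fold change. The limits are those of the study's methods, which do not say whether p is adjusted. By this rule 71 genes were higher (0.619% of those tested) and 84 lower (0.732%), and with an unadjusted p 83 and 93. Without replicate 2, 2788 genes were called higher (23.7% of 11780 tested) and 2746 lower (23.3%). Of the 71 higher DEGs 60 passed the same threshold without replicate 2, and of the 84 lower DEGs 78 did. The higher DEGs depended most on single libraries, with 145 without oeno>fru IR-3 replicate 1, when the replicate with raised gut transcripts stands alone, and 46 without control replicate 2. Every list of genes below is read against the shares of 26.0% and 26.7% and a median log2 fold change of -0.01 over all genes tested.

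**Figure D1:**
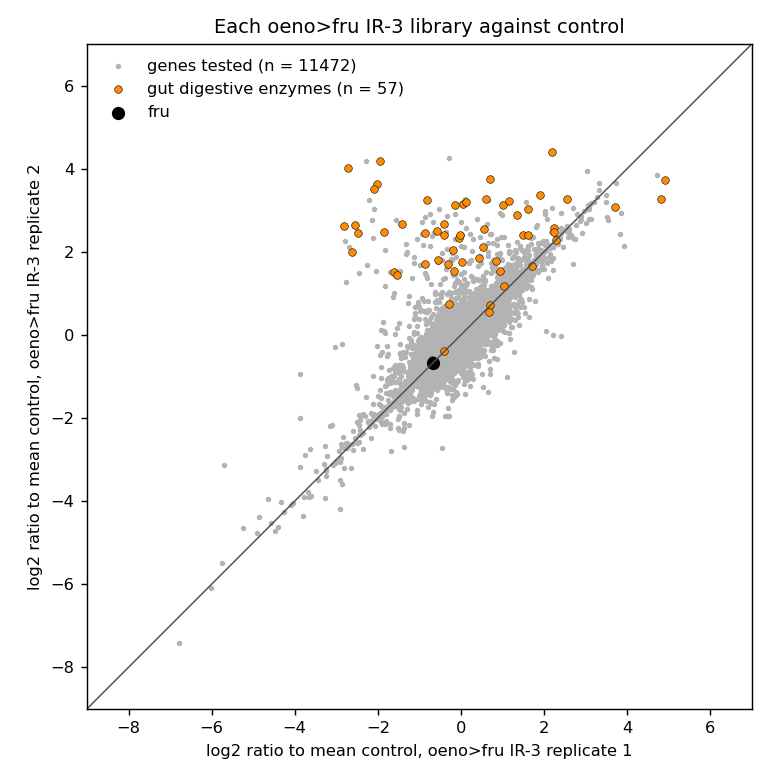
Log2 ratio of each oeno>fru IR-3 library to the mean of the control libraries for the 11472 genes tested, replicate 1 on the horizontal and replicate 2 on the vertical axis, with log2 CPM from a prior count of 2. Grey points are all genes, orange points the 57 gut digestive enzyme genes and the black point fru. Most genes lie on the diagonal, while 40 of the gut genes lie at least 1 log2 unit above it.

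The largest falls were in genes of the cuticle and in genes with little described function. By the smallest of the 4 ratios between an oeno>fru IR-3 and a control library, Ccp84Ae led the falls. It encodes a cuticle protein of the Ccp84A cluster (chromosome 3R from 6690887 to 6691758) and counted 16.8 and 17 CPM in control and 0.0909 and 0.0351 CPM in oeno>fru IR-3, so almost no reads were left in the hairpin libraries. Its neighbour Ccp84Ag counted 121 and 124 CPM in control and 5.39 and 4.57 CPM in oeno>fru IR-3, a log2 ratio of -4.61 (standard error 0.06, adjusted p = 2.8e-10 by edgeR). The adult cuticle protein gene Acp1 counted 181 and 176 CPM in control and 3.24 and 3.9 CPM in oeno>fru IR-3, a fold change of -5.65 on the log2 scale. Chs2, the chitin synthase known from the lining of the midgut, fell from 79.1 and 80.1 CPM to 2.03 and 3.13 CPM. The double-stranded RNA-binding protein gene blanks, known for its part in the male germline, counted 374 and 380.1 CPM in control and 17.8 and 15.1 CPM in oeno>fru IR-3, a log2 ratio of -4.51 (standard error 0.047, adjusted p = 1.1e-10 by edgeR). Myo28B1, an unconventional myosin gene, counted 51.7 and 51.4 CPM in control and 1.7 and 2.39 CPM in oeno>fru IR-3. Of the genes without a described role, CG18628 fell by 6.08 on the log2 scale, from 175 and 176 CPM to 2.67 and 2.49 CPM, and CG12826 had a log2 ratio of -4.56, from 268 and 270.0 CPM to 11.2 and 11.6 CPM. CG9737, CG10877, CG11378 and CG14280 completed the 12 largest falls, with log2 fold changes of -4.06, -4.89, -4.20 and -4.28. For each of the 12, both hairpin libraries lay below both control libraries, and the value without replicate 2 had the same sign. Both follow from ranking by the smallest ratio and are no further evidence. Myo28B1 overlaps Slob and CG18585, and CG10877 overlaps CG5191, so the counts of those pairs could share reads.

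The largest rises held a cell adhesion gene, detoxification genes, seminal fluid genes and a channel gene. Dscam4, a cell surface protein of the immunoglobulin superfamily, counted 0.676 and 1.13 CPM in control and 12.5 and 11.8 CPM in oeno>fru IR-3, a log2 ratio of 3.71 (standard error 0.18, adjusted p = 4.3e-07 by edgeR). Cyp6a2, a P450 known from insecticide resistance, counted 6.12 and 6.51 CPM in control and 55.9 and 57.5 CPM in oeno>fru IR-3, a log2 fold change of 3.16 (SE 0.063). GstD7, a glutathione S-transferase, counted 0.142 and 0.0566 CPM in control and 1.51 and 1.93 CPM in oeno>fru IR-3, at the lower end of what the counts could measure. Both Cyp6a2 libraries of oeno>fru IR-3 lay about 8.95-fold above control, with almost no spread between them. Ebp and EbpII, neighbouring genes of the ejaculatory bulb, counted 3.17 and 4.44 CPM in control and 35 and 35.2 CPM in oeno>fru IR-3 and 1.42 and 2.18 CPM in control and 14.9 and 14.8 CPM in oeno>fru IR-3 respectively. CngA, a cyclic nucleotide-gated channel subunit, counted 3.13 and 3 CPM in control and 24.4 and 24.6 CPM in oeno>fru IR-3, and mthl8, a methuselah-like receptor gene, counted 0.961 and 0.736 CPM in control and 7.54 and 7.59 CPM in oeno>fru IR-3. CG13947, without a described role, reached 88.9 and 91.6 CPM from 8.72 and 9.42 CPM. CG10477, a trypsin-like gene of the gut list, had the largest fitted value of the 12, 4.47, with 1.25 and 0.481 CPM in control and 25.5 and 11.1 CPM in oeno>fru IR-3. It was lower in replicate 2 than in replicate 1, the reverse of most of its list. CG4734, CG7953 and CG33062 completed the 12, with log2 fold changes of 4.29, 3.50 and 3.48. Dscam4 overlaps CG7213, CG7953 overlaps CenG1A and Cyp6a2 overlaps Epac.

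**Figure D2:**
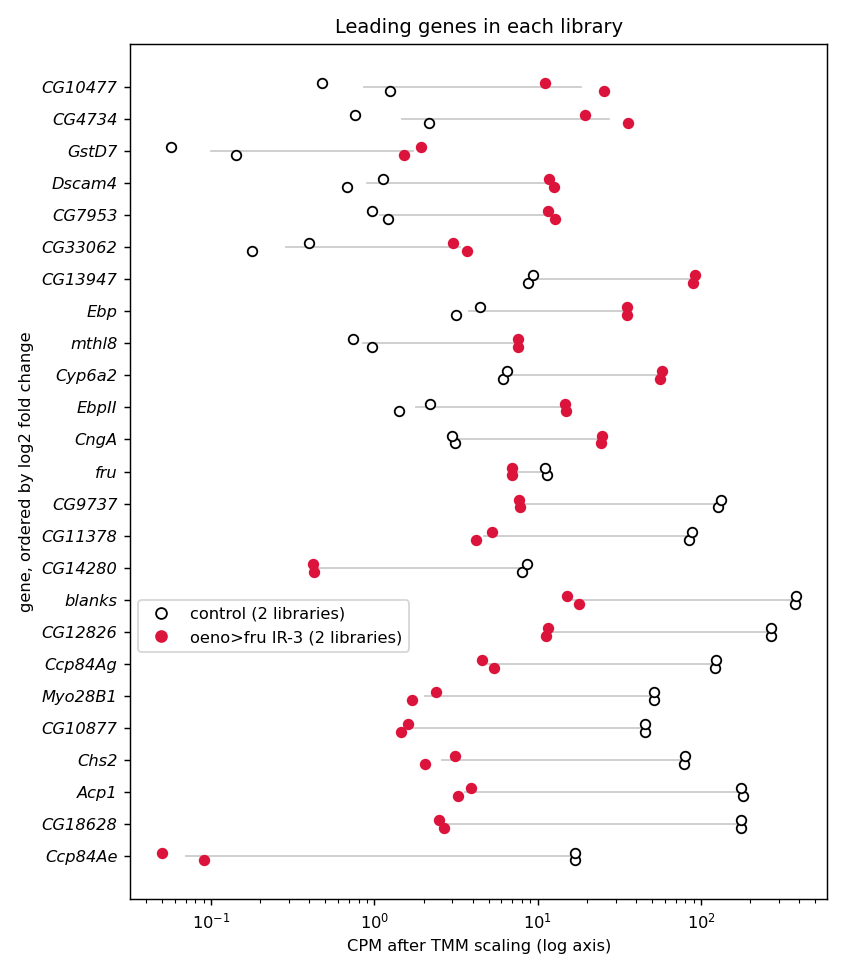
CPM of each library on a log axis for fru, the 12 largest rises and the 12 largest falls, with open circles for the 2 control libraries and filled circles for the 2 oeno>fru IR-3 libraries. Values under 0.05 CPM are drawn at 0.05. The 2 circles of a group lie close together beside the distance between the groups for nearly every gene, from Ccp84Ae at the bottom to CG10477 among the rises. The ranking favours genes of this kind.

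Genes of hydrocarbon synthesis were mostly higher in oeno>fru IR-3. Of 60 listed genes, 58 were tested, 36 were called higher and 13 lower, and the median log2 ratio was 0.37. Without replicate 2, 38 of 59 were called higher and 13 lower. The list was drawn up with the study's own pathway genes in view, which were chosen on libraries of this series. The study reported ACC, Hnf4, FASN2, desat1, Cyp4g1, CG16904 and CG30008 as lower after fru knockdown, by RNA-seq and RT-qPCR. Its text does not name the hairpin line behind those values. In oeno>fru IR-3, as given below, ACC, FASN2, Cyp4g1 and CG16904 were higher, and Hnf4 and Desat1 changed little. No value is given here for CG30008. The reason for the difference was not tested. At the supply of acyl chains, 9 of 12 genes of fatty acid synthesis and its regulators were called higher and 1 lower (10 higher and 1 lower of 12 without replicate 2). FASN3, the fatty acid synthase needed for the waterproofing of tracheae, counted 602 and 602 CPM in control and 2204 and 2113 CPM in oeno>fru IR-3, a log2 ratio of 1.84 (standard error 0.024, adjusted p = 2.8e-10 by edgeR). FASN1, the synthase of general lipid synthesis, counted 1990.0 and 1974 CPM in control and 3573 and 3540.0 CPM in oeno>fru IR-3, and FASN2, which makes the methyl-branched precursors of hydrocarbons, counted 3311 and 3288 CPM in control and 5196 and 5273 CPM in oeno>fru IR-3. All 3 synthases were thus higher in both libraries, where 8772 of the 11472 genes tested did not overlap in one direction or the other. ACC, which makes malonyl-CoA, rose by 0.54 on the log2 scale, ATPCL, which makes acetyl-CoA from citrate, by 0.44, AcCoAS, which makes it from acetate, by 0.94, and Men, the malic enzyme that supplies NADPH, by 1.03. The one member called lower was SREBP, the transcription factor of fatty acid synthesis genes, at 568 and 574 CPM in control and 495 and 501 CPM in oeno>fru IR-3. The nuclear receptor gene Hnf4 counted 439 and 433 CPM in control and 454 and 460.2 CPM in oeno>fru IR-3, a log2 fold change of 0.07 (adjusted p = 0.012) that became -0.02 with library size alone.

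Among elongases the members went both ways, with 8 of 17 called higher, 5 lower (8 higher and 5 lower of 18 without replicate 2) and a median of 0.23. The elongase bond, needed in males for a long-chain acetate pheromone of the ejaculatory bulb, rose most. It counted 15.6 and 15.3 CPM in control and 90.1 and 88.1 CPM in oeno>fru IR-3, a log2 ratio of 2.53 (standard error 0.043, adjusted p = 9.1e-10 by edgeR). CG16904, another elongase gene, counted 1127 and 1146 CPM in control and 1837 and 1801 CPM in oeno>fru IR-3. In the other direction, CG8534 counted 53.1 and 52.3 CPM in control and 12.8 and 12.9 CPM in oeno>fru IR-3, CG31522 counted 45.3 and 48 CPM in control and 19.1 and 16.6 CPM in oeno>fru IR-3, and CG31523 counted 7480.0 and 7534 CPM in control and 5318 and 5220.0 CPM in oeno>fru IR-3. The female-biased elongase eloF, known for long-chain dienes, fell from 31.9 and 30.9 CPM to 23.1 and 22.7 CPM. The summed level of the elongase genes was 14326 and 14444 CPM in control and 13138 and 12923 CPM in oeno>fru IR-3. Of the genes listed for the other steps of the elongation cycle, spidey, a ketoacyl-CoA reductase gene, rose by 0.76 on the log2 scale, the dehydratase gene Hacd1 by 0.43 and the enoyl-CoA reductase gene Sc2 by 0.41. The remaining gene listed there that was called lower, kar at -0.47, is known as a transporter gene and not as an enzyme of this cycle, and it is kept in the counts.

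Desaturases showed no common direction, with 2 of 8 called higher and 3 lower (3 higher and 4 lower of 8 without replicate 2). Desat1, the main delta-9 desaturase of fly pheromones, counted 3670.0 and 3669 CPM in control and 3824 and 3742 CPM in oeno>fru IR-3 and was not called. Fad2 (desatF), which sets the second double bond of female dienes, fell from 19.8 and 19.1 CPM to 5.09 and 5.87 CPM, a log2 fold change of -1.83, and the predicted desaturase CG15531 rose by 0.74. Fatty acyl reductases were called higher in 10 of 13 and lower in 3 (10 higher and 2 lower of 13 without replicate 2), with a median of 0.88. CG10097 led them with 676 and 657 CPM in control and 2267 and 2213 CPM in oeno>fru IR-3, a log2 ratio of 1.75 (standard error 0.023, adjusted p = 2.8e-10 by edgeR). FarO, a reductase known to act in oenocytes, counted 879.9 and 886 CPM in control and 1197 and 1228 CPM in oeno>fru IR-3. The reductase wat (waterproof), known from the trachea, fell instead, from 42.8 and 45.6 CPM to 15.4 and 13.5 CPM. At the last step, Cyp4g1 rose by 0.54 in log2 units (standard error 0.038, adjusted p = 5.4e-06 by edgeR), and Cpr, which passes electrons to it, by 0.15, from 5251 and 5257 CPM to 5878 and 5784 CPM, which was not called under library size alone (0.06, adjusted p = 0.059). Hydrocarbons themselves were not measured in these libraries.

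**Figure D3:**
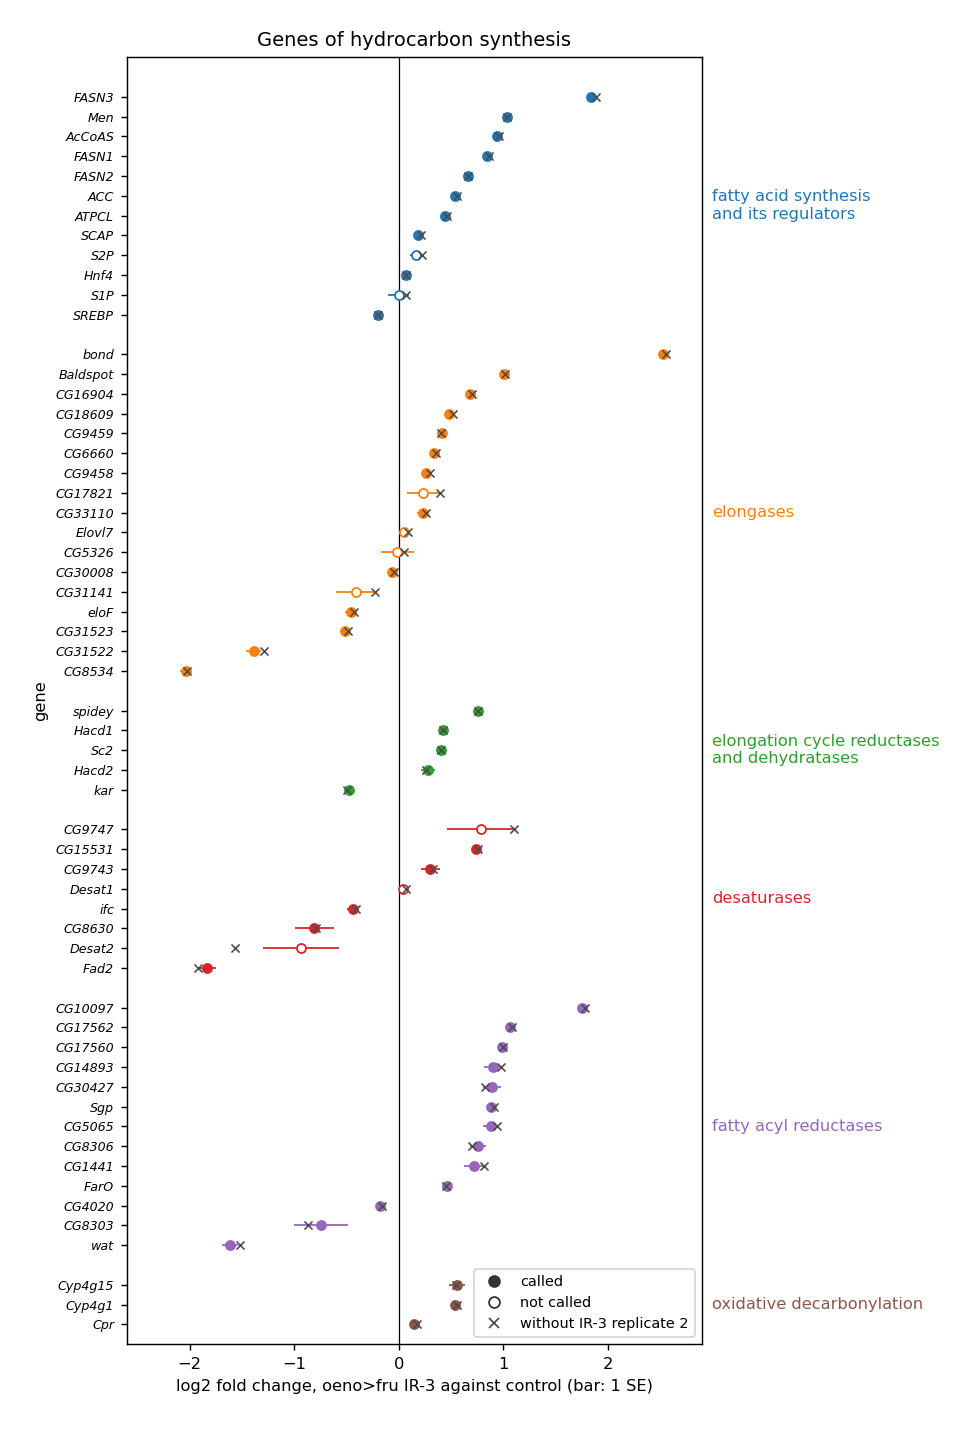
Log2 fold change of oeno>fru IR-3 against control for the 58 tested genes of hydrocarbon synthesis, grouped by their step, with bars of 1 standard error and crosses for the value without oeno>fru IR-3 replicate 2. Filled circles were called at an adjusted p under 0.05. Fatty acid synthesis and fatty acyl reductases lie mostly to the right of 0 and elongases and desaturases on both sides.

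Genes that store and carry lipids went both ways. Of the listed genes, 14 of 27 tested members were called higher and 6 lower (13 higher and 5 lower of 28 without replicate 2), with a median of 0.11. With library size alone, 10 were lower. Lsd-1, a perilipin of the lipid droplet surface that admits hormone-driven lipolysis, fell from 962 and 965 CPM to 374 and 373 CPM, a log2 ratio of -1.36 (standard error 0.017, adjusted p = 2.7e-10 by edgeR). The other perilipin, Lsd-2, counted 447 and 453 CPM in control and 468 and 468 CPM in oeno>fru IR-3, a difference whose sign turned with library size alone, and the triglyceride lipase bmm counted 209.9 and 209.6 CPM in control and 239 and 234 CPM in oeno>fru IR-3. Of the genes of lipoprotein traffic, those named here were higher, with apolpp, the lipophorin protein, at 937 and 933 CPM in control and 1409 and 1355 CPM in oeno>fru IR-3, the lipid transfer genes Apoltp and Mtp at log2 fold changes of 0.67 and 0.66, and the receptor gene LpR1 at 450.4 and 448 CPM in control and 748 and 742 CPM in oeno>fru IR-3. In beta-oxidation and the peroxisome, 15 of 23 tested members were called higher and 5 lower (14 higher and 6 lower of 23 without replicate 2), with a median of 0.22. The carnitine palmitoyltransferase gene whd rose by 0.71 and the peroxisomal catalase gene Cat by 0.77, from 3079 and 3055 CPM to 5191 and 5262 CPM. Hmgs, the HMG-CoA synthase of the mevalonate and ketone body routes, moved the other way. It counted 12291 and 12258 CPM in control and 5109 and 5131 CPM in oeno>fru IR-3, a fall of 1.26 in log2 units (standard error 0.023, adjusted p = 1.4e-09 by edgeR).

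Glycolysis and glycogen genes rose together. In glycolysis and trehalose metabolism, 26 of 30 tested members were called higher and 3 lower, and the median was 0.69, with the same counts without replicate 2. Pgi, which isomerises glucose 6-phosphate, counted 470.2 and 477 CPM in control and 1253 and 1256 CPM in oeno>fru IR-3, a log2 ratio of 1.41 (standard error 0.018, adjusted p = 2.8e-10 by edgeR). The glycogen debranching gene CG9485 counted 67.7 and 62.4 CPM in control and 239 and 234 CPM in oeno>fru IR-3, and both Glyp, the phosphorylase that breaks glycogen down, and Glys, the synthase that builds it, rose, by 1.03 and 1.13 on the log2 scale. Pfk and PyK, at the start and end of the glycolytic chain, rose by 0.76 and 0.76, and Tps1, which makes trehalose, by 0.69. Adh, the alcohol dehydrogenase, rose from 2345 and 2376 CPM to 5456 and 5520.0 CPM. The 3 members called lower were Zw, the first enzyme of the pentose phosphate route, at 706 and 707 CPM in control and 332 and 346 CPM in oeno>fru IR-3, Gpo1, the mitochondrial glycerol 3-phosphate dehydrogenase, at 345 and 349 CPM in control and 175 and 177 CPM in oeno>fru IR-3, and Hex-A, one of the hexokinases, at 428 and 425 CPM in control and 314 and 315 CPM in oeno>fru IR-3. Hex-C, a hexokinase of the fat body, went up by 1.02 on the log2 scale where Hex-A fell by 0.44.

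Among hormone genes, sad, the 2-hydroxylase that completes part of ecdysteroid synthesis, had the largest fall in reads. It counted 5239 and 5189 CPM in control and 1342 and 1390.0 CPM in oeno>fru IR-3, a log2 ratio of -1.93 (standard error 0.024, adjusted p = 2.7e-10 by edgeR). In steroid and juvenile hormone genes as a whole, 7 of 30 tested members were called higher and 8 lower (7 higher and 8 lower of 32 without replicate 2), close to the shares over all genes, with 13 lower under library size alone. The ecdysone receptor gene EcR counted 16.8 and 16.3 CPM in control and 19.5 and 18.3 CPM in oeno>fru IR-3 and its partner usp 53.8 and 54.1 CPM in control and 47.1 and 48.8 CPM in oeno>fru IR-3. Genes of juvenile hormone breakdown did not move as one, as the epoxide hydrolase Jheh2 counted 145 and 152 CPM in control and 445 and 449 CPM in oeno>fru IR-3 and Jheh1 58.3 and 57.6 CPM in control and 128 and 129.8 CPM in oeno>fru IR-3, while Jheh3 fell from 44.6 and 43.8 CPM to 34.7 and 38.6 CPM. The insulin and growth signalling list leaned to falls, with 13 of 24 called lower and 5 higher (6 higher and 11 lower of 24 without replicate 2), and a median of -0.13. ImpL2, a secreted protein that binds insulin-like peptides, counted 1483 and 1475 CPM in control and 623 and 604 CPM in oeno>fru IR-3, a fall of 1.27 on the log2 scale (SE 0.021). The insulin receptor gene InR fell by 0.65 and the kinase gene Akt by 0.44, while mTor and raptor, of the growth-promoting TOR complex, rose by 0.55 and 0.59. The sugar-responsive glycosidase gene tobi, also a fat body gene, counted 164 and 165 CPM in control and 554 and 568 CPM in oeno>fru IR-3.

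Detoxification genes were higher across families. Cytochrome P450 genes were called higher in 54 of 80 and lower in 8, with a median of 0.64. Without replicate 2 the median was 0.63. Leaving out that library does not remove raised gut transcripts. The digestive enzyme genes summed to 2780 CPM in oeno>fru IR-3 replicate 1 as well, against 834 and 847 CPM in control. The part of gut RNA in the P450 counts was not tested. The number lower was 3 without either control library and 4 without oeno>fru IR-3 replicate 1. Beside Cyp6a2, Cyp12d1-d counted 38.6 and 37 CPM in control and 229 and 223 CPM in oeno>fru IR-3, a log2 fold change of 2.58, and Cyp6a8 counted 37.3 and 36.1 CPM in control and 187 and 183 CPM in oeno>fru IR-3, one of 2.33. Cyp12d1-d has a near-identical neighbour, Cyp12d1-p, between which counts can be split in error. Glutathione S-transferase genes were called higher in 17 of 29 and lower in 3 (17 higher and 1 lower of 29 without replicate 2). GstD1, an abundant and widely induced member, counted 154 and 154 CPM in control and 394 and 391 CPM in oeno>fru IR-3, a log2 ratio of 1.35 (standard error 0.019, adjusted p = 3.5e-10 by edgeR). UDP-glycosyltransferase genes were called higher in 14 of 23 and lower in 2 (13 higher and 2 lower of 23 without replicate 2), with a median of 0.98, and Ugt35C1 counted 8.83 and 9.48 CPM in control and 32 and 33.1 CPM in oeno>fru IR-3. Keap1, the inhibitor of the transcription factor that induces many such genes, counted 62 and 62 CPM in control and 53.7 and 55 CPM in oeno>fru IR-3. In oxidative defence, 13 of 28 tested members were called higher and 6 lower (13 higher and 6 lower of 29 without replicate 2). The superoxide dismutase gene Sod1 fell from 5574 and 5529 CPM to 3560.0 and 3619 CPM while the transferrin gene Tsf1 rose from 823 and 825 CPM to 2005 and 2075 CPM.

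**Figure D4:**
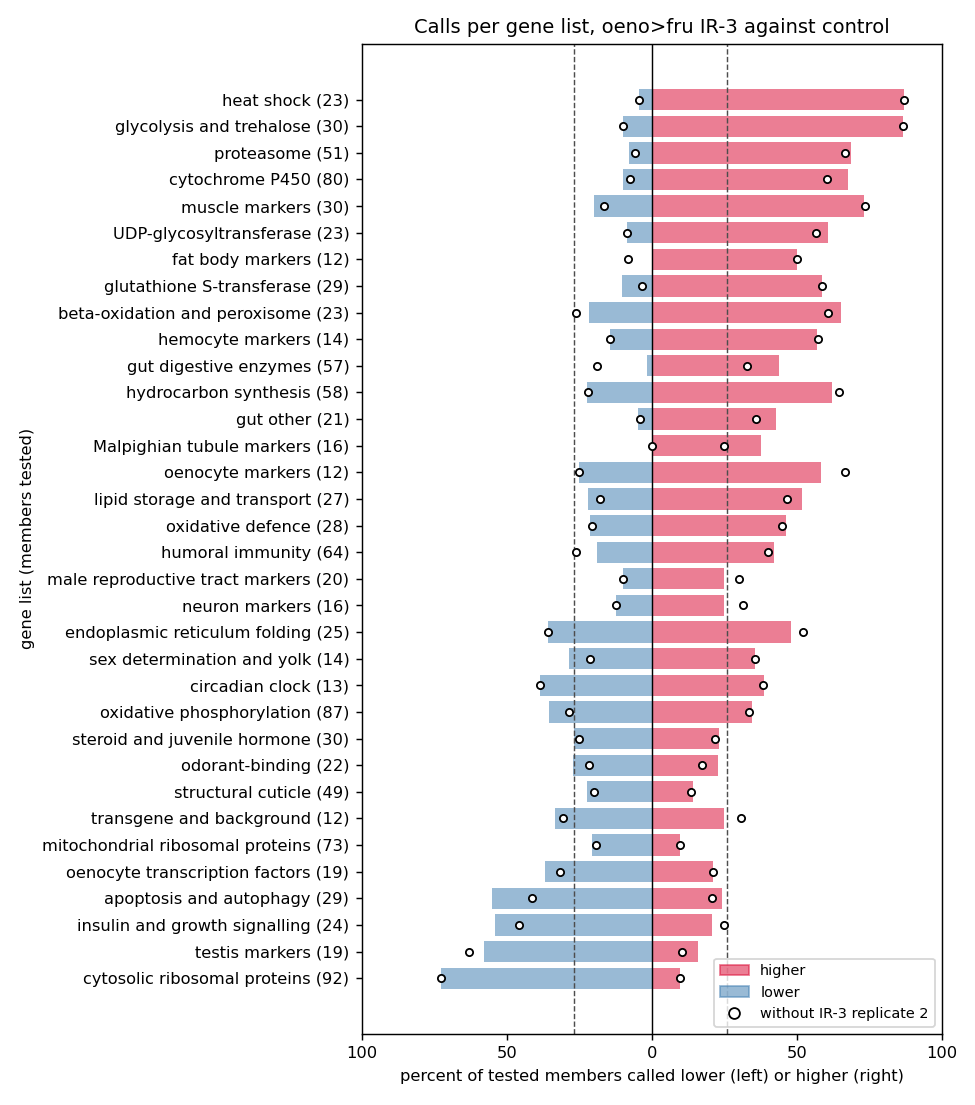
Percent of tested members called higher (right) and lower (left) in oeno>fru IR-3 against control for the gene lists with at least 10 tested members, with bars for the comparison of all 4 libraries and circles for the same without oeno>fru IR-3 replicate 2. The dashed lines mark 26.0% and 26.7%, the shares over all genes tested. Heat shock and glycolysis genes reach the right-most bars and cytosolic ribosomal proteins the left-most, and the gut digestive enzymes are the list whose lower share moves most without replicate 2.

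Chaperone genes of the heat shock list were nearly all higher. Of its genes, 20 of 23 tested members were called higher and 1 lower, with a median of 0.62 and the same counts without replicate 2. The small heat shock genes Hsp23 and Hsp22 counted 32.7 and 34.3 CPM in control and 89.5 and 85.8 CPM in oeno>fru IR-3 and 130.5 and 135 CPM in control and 275 and 269.8 CPM in oeno>fru IR-3 respectively. Copies of Hsp70 are near-identical and share reads, so single copies are not described. Each copy is still counted as a member in the counts above, so these are not counts of independent members. Hsp83, the fly Hsp90, was the one member called lower, at 1367 and 1340.0 CPM in control and 1226 and 1221 CPM in oeno>fru IR-3. Folding genes of the endoplasmic reticulum had no such common direction, as 12 of 25 tested members were called higher and 9 lower (13 higher and 9 lower of 25 without replicate 2), with a median of 0.04, and 7 higher and 12 lower with library size alone. There the disulfide isomerase gene ERp60 rose by 0.78 and the translocon gene Sec61gamma fell by 0.74 on the log2 scale.

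In humoral immunity, 27 of 64 tested members were called higher and 12 lower (26 higher and 17 lower of 65 without replicate 2), with antimicrobial peptide genes called higher in 16 of 32 and lower in 3 (15 higher and 6 lower of 32 without replicate 2). Drs, the antifungal peptide that reports the Toll pathway, counted 8.47 and 8.29 CPM in control and 28.4 and 27.8 CPM in oeno>fru IR-3, a log2 ratio of 1.75 (standard error 0.065, adjusted p = 8.6e-08 by edgeR), and PGRP-SD, a recognition protein, counted 9.61 and 9.56 CPM in control and 27.3 and 25 CPM in oeno>fru IR-3. Dif, the NF-kappaB factor of the Toll pathway in adults, rose by 0.75 on the log2 scale. Several members of the Imd pathway were lower, with DptB, a peptide that reports it, at 46.1 and 49 CPM in control and 23.3 and 26.6 CPM in oeno>fru IR-3, its receptor gene PGRP-LC at 328 and 327 CPM in control and 237 and 237 CPM in oeno>fru IR-3, and the related PGRP-LA and PGRP-LF at log2 fold changes of -0.76 and -1.03. Its factor Rel rose by 0.15, which was not called under library size alone (0.06, adjusted p = 0.063). The cytokine gene upd3, of the JAK-STAT pathway, counted 6.27 and 6.99 CPM in control and 2.12 and 2.11 CPM in oeno>fru IR-3.

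In the joint list of apoptosis and autophagy genes more members were lower than higher. Of this list, 7 of 29 tested members were called higher and 16 lower, with a median of -0.19, and without replicate 2 6 were called higher and 12 lower. The number lower was 9 without control replicate 1, and the number higher 4 without control replicate 2 and 4 without oeno>fru IR-3 replicate 1. The death ligand gene egr (eiger) counted 55.7 and 56.4 CPM in control and 7.88 and 5.97 CPM in oeno>fru IR-3, a log2 ratio of -3.01 (standard error 0.1, adjusted p = 4.9e-08 by edgeR). The tumour suppressor gene p53 counted 46.7 and 46 CPM in control and 11.2 and 12.1 CPM in oeno>fru IR-3, and the caspase activators hid and rpr counted 35.9 and 33.2 CPM in control and 9.87 and 9.24 CPM in oeno>fru IR-3 and 6.09 and 6.08 CPM in control and 1.67 and 1.33 CPM in oeno>fru IR-3. All 4 were thus below both control libraries in both hairpin libraries. The groups likewise did not overlap, in one direction or the other, for 8772 of the 11472 genes tested. The caspase inhibitor gene Diap1 was lower as well, by 0.46 on the log2 scale. Atg8a, of the autophagosome membrane, fell by 0.27, whereas ref(2)P, the cargo receptor of autophagy, rose from 1761 and 1785 CPM to 2866 and 2889 CPM.

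Cytosolic ribosomal protein genes fell by a small amount in most members. Of the tested genes, 67 of 92 were called lower and 9 higher (9 higher and 67 lower of 92 without replicate 2), with a median of -0.16, and the summed level was 114356 and 114075 CPM in control and 102754 and 104092 CPM in oeno>fru IR-3. Mitochondrial ribosomal protein genes were called lower in 15 of 73 and higher in 7 (7 higher and 14 lower of 73 without replicate 2), under the share over all genes in both directions. Proteasome subunit genes were called higher in 35 of 51 and lower in 4 (34 higher and 3 lower of 51 without replicate 2), with a median of 0.26. Oxidative phosphorylation genes were divided, with 30 of 87 called higher, 31 lower (29 higher and 25 lower of 87 without replicate 2) and a median of -0.03, a balance that turned to more higher than lower calls in 6 of 7 alternatives and was 20 higher and 43 lower in the other one, library size alone. Without control replicate 2, 25 were higher and 20 lower. With library size alone, 79 cytosolic ribosomal protein genes were called lower and 4 higher, and 29 proteasome genes higher and 6 lower, so neither list turned its direction with the scaling.

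Among cuticle genes the strong falls were few. Of 134 listed genes, 49 passed the filter, and of these 11 were called lower and 7 higher (8 higher and 12 lower of 60 without replicate 2), with a median of -0.06. Beside the Ccp84A genes, Cpr57A counted 21.4 and 20.6 CPM in control and 7.39 and 7.94 CPM in oeno>fru IR-3 and Cpr49Aa 1.14 and 1.73 CPM in control and 0.151 and 0.176 CPM in oeno>fru IR-3. Odorant-binding protein genes, 22 of 51 tested, were called higher in 5 and lower in 6 (4 higher and 5 lower of 23 without replicate 2). Obp56g, also a seminal fluid gene, rose from 1.07 and 0.99 CPM to 6.54 and 5.87 CPM, and Obp56a fell from 2.56 and 2.01 CPM to 0.454 and 0.351 CPM. Of the gap junction genes, Inx7 counted 15.3 and 15.5 CPM in control and 2.03 and 2.46 CPM in oeno>fru IR-3 and ogre (Inx1) 27.3 and 29.6 CPM in control and 56.5 and 60.6 CPM in oeno>fru IR-3, in opposite directions.

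Transcription factors of oenocytes and of the body axis changed by less than the leading genes, with 7 of 19 called lower, 4 higher (4 higher and 6 lower of 19 without replicate 2) and a median of -0.05. The spalt genes parted, with salm, which specifies oenocytes, falling from 57 and 57.4 CPM to 32.9 and 33.1 CPM and its paralog salr rising from 49.8 and 47.7 CPM to 72.2 and 72.9 CPM. The POU factor gene vvl fell by 0.56 on the log2 scale. In the circadian clock, 5 of 13 tested members were called higher and 5 lower (5 higher and 5 lower of 13 without replicate 2). The activator genes Clk and cyc rose by 0.26 and 0.49, and vri, Pdp1 and per, which they drive, fell by 0.79, 0.40 and 0.35 on the log2 scale. The hour of dissection is not given in the labels. In the sex determination list, 5 of 14 tested members were called higher and 4 lower (5 higher and 3 lower of 14 without replicate 2). The gene tra2, whose product splices fru and dsx in females, counted 139 and 142 CPM in control and 55.2 and 52.4 CPM in oeno>fru IR-3, a log2 fold change of -1.38 (SE 0.032), and dsx counted 53.6 and 54.5 CPM in control and 75.4 and 74.3 CPM in oeno>fru IR-3. The yolk protein genes, normally of female fat body, were at low levels, with Yp1 at 7.33 and 10.3 CPM in control and 18.9 and 17.6 CPM in oeno>fru IR-3.

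Markers of other cells that a dissection can carry also differed between the groups, in both directions. Fat body markers were called higher in 6 of 12 (6 higher and 1 lower of 12 without replicate 2), and their summed level was 3307 and 3278 CPM in control and 5922 and 5860.0 CPM in oeno>fru IR-3. The larval serum protein gene Lsp2 counted 53.2 and 44.7 CPM in control and 168 and 166 CPM in oeno>fru IR-3, and Fbp1, which defines the fat body, 7.83 and 10.6 CPM in control and 3.67 and 7.55 CPM in oeno>fru IR-3. Several of these markers, such as apolpp and FASN1, are also expressed by oenocytes. Muscle markers were called higher in 22 of 30 and lower in 6 (22 higher and 5 lower of 30 without replicate 2), with summed levels of 4969 and 4934 CPM and 5853 and 5825 CPM, and Mhc, the muscle myosin heavy chain gene, counted 343 and 348 CPM in control and 639 and 652 CPM in oeno>fru IR-3. Hemocyte markers were called higher in 8 of 14 and lower in 2 (8 higher and 2 lower of 14 without replicate 2). Their collagen genes Col4a1 and vkg, which fat body also expresses, rose by 1.09 and 1.33, while the scavenger receptor gene crq fell from 1008 and 1025 CPM to 344 and 336 CPM. Neuron markers were called higher in 4 of 16 and lower in 2 (5 higher and 2 lower of 16 without replicate 2), with elav, which defines neurons, at 7.72 and 8.26 CPM in control and 10.7 and 9.87 CPM in oeno>fru IR-3 and the RNA-binding protein gene Rbp9 at 417 and 412 CPM in control and 43.3 and 42.9 CPM in oeno>fru IR-3. Testis markers were called lower in 11 of 19 and higher in 3 (2 higher and 12 lower of 19 without replicate 2), with summed levels of 379.5 and 382 CPM and 252 and 246 CPM, and the sperm gene Mst87F fell from 48.4 and 48.2 CPM to 26.3 and 23 CPM. Genes of the male reproductive tract were called higher in 5 of 20 and lower in 2 (6 higher and 2 lower of 20 without replicate 2), with summed levels of 21.5 and 23.4 CPM and 71.1 and 68.9 CPM, to which Ebp and EbpII gave most. Malpighian tubule markers were called higher in 6 of 16 (4 without replicate 2, and 3 with limma on the TPM values plus 1), and Eglp4, an aquaporin family gene at 215 and 222 CPM in control and 545 and 554 CPM in oeno>fru IR-3, made up most of their summed level. The part of such cells in any of the differences above was not tested.

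Gut transcripts set oeno>fru IR-3 replicate 2 apart, and the list's count depended on it. With both replicates, 25 of 57 tested digestive enzyme genes were called higher and 1 lower, and the median log2 ratio was 1.64. Without replicate 1 of oeno>fru IR-3, 54 were called higher, and with the replicate number as a block 42 higher and 2 lower. Without replicate 2, 19 of 58 were called higher and 11 lower, with a median of -0.18. Jon65Aiv, a Jonah protease, counted 8.4 and 16.2 CPM in control and 10.6 and 103 CPM in oeno>fru IR-3, and the gut protease gene Bace counted 7.76 and 6.65 CPM in control and 0.969 and 44.5 CPM in oeno>fru IR-3. Bace was thus lower than control in replicate 1 and higher in replicate 2. The 6 genes with the largest ratio of replicate 2 to replicate 1 among those with at least 50 counts in replicate 2 were deltaTry, PGRP-SC1a, gammaTry, Jon25Bi, Jon25Bii and CG17192. Jon25Bi counted 0.534 and 2.52 CPM in control and 0.242 and 15.3 CPM in oeno>fru IR-3, and Jon25Bii 0.356 and 0.99 CPM in control and 0.0909 and 7.48 CPM in oeno>fru IR-3. The trypsin gene deltaTry counted 0 and 2.74 CPM in control and 0 and 6.74 CPM in oeno>fru IR-3, gammaTry 0 and 0.905 CPM in control and 0 and 4.5 CPM in oeno>fru IR-3 and the peptidoglycan amidase gene PGRP-SC1a 0 and 1.47 CPM in control and 0 and 5.62 CPM in oeno>fru IR-3, where the 0 of both first replicates stands in genes with near-identical copies, among which estimated counts can be shifted. Control replicate 2 was also above control replicate 1 for these genes. A smaller group of the list was higher in both hairpin libraries alike. Mal-B2, a maltase, counted 376 and 386 CPM in control and 1843 and 1862 CPM in oeno>fru IR-3, a log2 ratio of 2.28 (standard error 0.021, adjusted p = 7.2e-11 by edgeR) and 2.29 without replicate 2, and yip7 counted 34.1 and 7.21 CPM in control and 206 and 133 CPM in oeno>fru IR-3. Other gut markers, structural and regulatory ones, were called higher in 9 of 21 and lower in 1, with 9 and 1 without replicate 2, 15 higher without oeno>fru IR-3 replicate 1 and 4 higher without control replicate 2, and Myo31DF, a brush border myosin, counted 26.6 and 26.5 CPM in control and 28.9 and 33.1 CPM in oeno>fru IR-3.

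Some genes that can mark a stock's background rather than its tissue differed as well. Their list also holds the RNA interference genes above. Of its 12 tested members, 3 were called higher (25.0%) and 4 lower (33.3%), beside 26.0% and 26.7% of all genes. Of its members, w, bw and tio are given here. The eye colour gene w, whose short form marks many transgenes, counted 129.5 and 128 CPM in control and 264 and 262 CPM in oeno>fru IR-3, about 2.05-fold more in oeno>fru IR-3, and the eye colour gene bw counted 9.97 and 11.1 CPM in control and 0.757 and 0.703 CPM in oeno>fru IR-3, a log2 ratio of -3.84 (standard error 0.14, adjusted p = 8.4e-08 by edgeR). The gene tio, beside a landing site used in the Vienna KK collection, counted 11.2 and 9.45 CPM in control and 6.3 and 5.66 CPM in oeno>fru IR-3, a fall of 0.79 on the log2 scale (adjusted p = 0.00044). Differences that come from the background and those that come from the hairpin cannot be told apart in this comparison.

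Against the other hairpin lines, oeno>fru IR-3 was the line with less fru RNA in each direct test. Against control, counted fru RNA was higher in these 2 lines, although both carry hairpins named for fru. The log2 fold change was 1.03 for oeno>fru IR-2 and 0.57 for oeno>fru IR. The study checked knockdown by other means. It reported weaker anti-Fru staining with these 2 stocks in the larval nervous system. For 2 fru-RNAi lines it reported knockdown of differing strength in oenocyte staining and in RT-qPCR under a whole-body driver. Why the counts here were higher than in control was not tested. In the direct comparison with oeno>fru IR-2, fru was at a log2 difference of -1.71 (adjusted p = 8.8e-06 from edgeR), and in that with oeno>fru IR at -1.24 (adjusted p = 1.0e-06). Of 11520 genes tested, 4186 differed between oeno>fru IR-3 and oeno>fru IR-2, which is 36.3%, and of 11738 genes 6640 differed between oeno>fru IR-3 and oeno>fru IR, which is 56.6%. These comparisons do not use the control. Glycolysis and trehalose genes were higher in oeno>fru IR-3 than in oeno>fru IR-2 for 26 of 30 members and lower for 1, and higher than in oeno>fru IR for 27 and lower for 3. Cytosolic ribosomal protein genes were lower than in oeno>fru IR-2 for 84 of 92 and lower than in oeno>fru IR for 75. Heat shock genes divided the lines, with 12 of 23 lower and 7 higher than in oeno>fru IR-2, and 19 higher and 4 lower than in oeno>fru IR. Hydrocarbon synthesis genes were higher than in oeno>fru IR for 31 of 58 and lower for 18, and higher than in oeno>fru IR-2 for 21 and lower for 16.

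The 24 leading genes can be set beside the same genes in the other genotypes, each compared with the same control libraries, so that the columns of values are not independent. The falls of the cuticle genes had the same sign in each. Ccp84Ae had a log2 fold change of -7.94 in oeno>fru IR-3, -7.68 in oeno>fru IR-2, -5.95 for oeno>fru IR and -9.03 for oeno>fru OE, the line that overexpresses fru. Chs2 was at -4.96, -5.11, -3.80 and -5.71 in the same order. Several rises were smaller in the other hairpin lines, or had the other sign there. The 24 genes were picked for their change in the same oeno>fru IR-3 libraries, so the direct tests favour a difference from other lines. CngA was at 3.001 in oeno>fru IR-3 but -0.40 for oeno>fru IR-2 and 0.31 for oeno>fru IR, and the direct tests between lines gave 3.41 (adjusted p = 2.1e-06) and 2.71 (adjusted p = 1.6e-08). Ebp was at 3.19, -0.74 and -0.99, with direct differences of 3.95 (adjusted p = 2.2e-06) and 4.20 (adjusted p = 1.5e-09). Cyp6a2 was at 3.16, 0.95 and 0.74, with direct differences of 2.23 and 2.43. By contrast CG13947 was higher than control in every genotype, at 3.31, 2.70, 4.04 and, in oeno>fru OE, 2.94. For blanks, which was lower in every line, the direct differences were -2.47 against oeno>fru IR-2 and -2.52 against oeno>fru IR (adjusted p = 5.0e-06 and 2.2e-08).

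**Figure D5:**
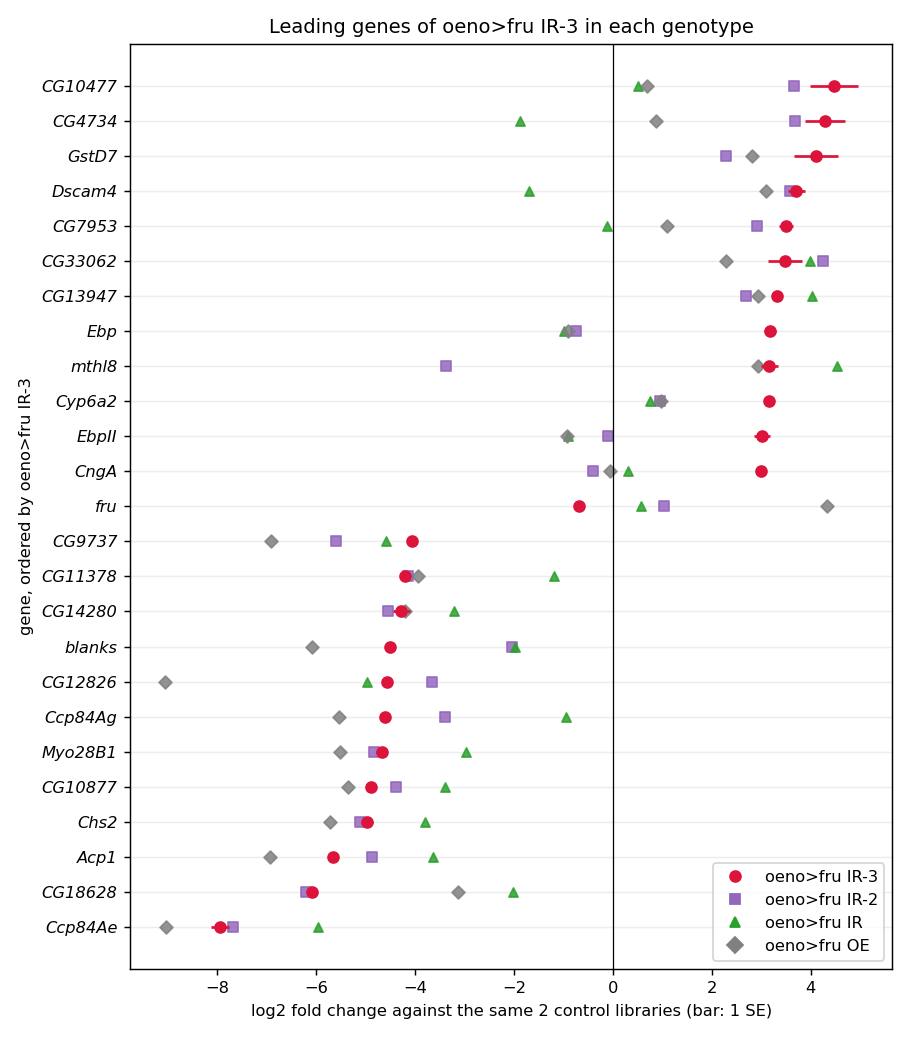
Log2 fold change against the same 2 control libraries for fru and the 24 leading genes of oeno>fru IR-3, in oeno>fru IR-3, oeno>fru IR-2, oeno>fru IR and oeno>fru OE, each from its own edgeR fit. Bars of 1 standard error are drawn for oeno>fru IR-3, and no mark is drawn where a gene did not pass the filter. The falls keep their sign across genotypes for all 12 genes, while CngA, Ebp, EbpII and Cyp6a2 lie to the right of 0 by more than 2 units in oeno>fru IR-3 alone.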

How the data were processed

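RNA-seq was analysed from adult oenocytes of 5 genotypes with 2 libraries each. According to the study's methods and the submitters' processing notes, the authors trimmed reads with fastp 0.22.0, aligned them with bowtie2 to dme6, estimated counts per gene with RSEM 1.2.31 and compared genotypes with edgeR 3.36.0. The authors deposited expected counts, of which 16.4% were not whole, and TPM values rescaled by TMM. Here, expected counts were rounded and tested in edgeR 4.0.16 (R 4.3.3) with TMM factors, filterByExpr at its defaults, the quasi-likelihood test and Benjamini-Hochberg adjustment over all genes tested, with the 2 libraries of each compared genotype. Every adjusted p without another name is from this test. With 2 libraries against 2, 0.333 is the smallest two-sided p an exact permutation test allows. Alternatives were DESeq2 1.42.0, limma 3.58.1 on the deposited TPM values plus 1 or 0.1, library size alone, edgeR's exact test, all 10 libraries, other filters, the replicate number as a block, and each library left out.

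Named genes are fru, the 12 rises and 12 falls ranked by the smallest of the 4 log2 CPM ratios (prior count 2) among called genes whose higher group averaged 50 counts or more, up to 6 members of each of 35 gene lists with the members that define a pathway, and the 6 genes with the largest ratio between the oeno>fru IR-3 libraries. Members and lists were chosen with earlier results of these data known. Of 13986 gene identifiers, 13983 were found in the BDGP6.54 annotation, which gave names and coordinates. The count totals set the counting precision, and strand was not given in the sources used here, so overlapping genes can share reads.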

Additional observations from a re-analysis of the deposited data

Results flagged for a closer look

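Some leading genes of oeno>fru IR-3 had fitted values on the other side of the control level in another hairpin line. For these the lines also differed in the direct edgeR test. Apart from fru, they were picked for their change in the same oeno>fru IR-3 libraries, which favours such a difference. The targeted gene was one of those flagged. For fru the log2 difference was -1.705 (adjusted p = 8.8e-06) between oeno>fru IR-3 and oeno>fru IR-2 and -1.236 (adjusted p = 1.0e-06) between oeno>fru IR-3 and oeno>fru IR, where fru stood at -0.68 from control in oeno>fru IR-3, 1.03 for oeno>fru IR-2 and 0.57 for oeno>fru IR.

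The ejaculatory bulb genes rose in oeno>fru IR-3, while their values from control were -0.74 and -0.10 for oeno>fru IR-2 and -0.99 and -0.91 for oeno>fru IR. Ebp differed by 3.946 from oeno>fru IR-2 and by 4.198 from oeno>fru IR, and EbpII by 3.135 and 3.948, with adjusted p-values of 2.2e-06, 1.5e-09, 3.1e-05 and 1.8e-08. CngA differed by 3.410 from oeno>fru IR-2, where it was at -0.40 from control, and mthl8 by 6.529, where it was at -3.36. Against oeno>fru IR, CG4734 differed by 6.167, CG7953 by 3.642 and Dscam4 by 5.429, and their values from control in that line were -1.87, -0.12 and -1.68. The hairpin, the insertion and the stock background differ between the lines and cannot be told apart.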

How the results depend on the processing

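The fall of fru kept its direction and its call in every alternative run, from -0.776 with library size alone to -0.338 with limma on TPM plus 1, and -0.709 to -0.655 with 1 library left out. Counts of called genes were 2444 to 2841 higher and 2364 to 2803 lower with 1 library left out. The higher DEGs went from 71 to 27 and 38 with limma on TPM plus 1 and plus 0.1, and from 46 (without control replicate 2) to 145 (without oeno>fru IR-3 replicate 1), and the lower DEGs from 84 to 43 with limma plus 1, with 68 to 92 when 1 library was left out. Genes that differed between oeno>fru IR-3 and oeno>fru IR-2 fell from 4186 to 2419 with edgeR's exact test, and were 2898 to 3466 with 1 library left out, against 5232 to 6765 for oeno>fru IR. The causes were not tested. Of the called genes, 49.3% were higher with TMM, 52.3% with DESeq2 and 38.0% with library size alone.

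Among 171 named genes, log2 fold changes with 1 library left out ranged widely for Bace (-2.872 to 2.634), Jon25Bi (-2.669 to 3.838), Jon25Bii (-2.864 to 3.405), PGRP-SC1a (-7.646 to 9.376) and deltaTry (-8.531 to 9.64). The lowest value of each is the one without oeno>fru IR-3 replicate 2, where the sign turned, and none of them was called with all 4 libraries. The values of PGRP-SC1a and deltaTry depend on the prior count, as both are at 0 in both first replicates. Jon65Aiv (-0.235) and gammaTry (-6.961) also turned without that library, uncalled on both sides. With library size alone the sign turned for Hnf4 (-0.022) and Lsd-2 (-0.035), both called with TMM, for AGO1 (-0.075), called with library size alone only, and for AGO2 (-0.052), Dcr-2 (-0.004) and Desat1 (-0.047), called in neither. No other named gene changed sign in the alternatives run for it.

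The replicate numbers do not pair the libraries by any label, and the deviations of same-numbered libraries had a correlation of 0.15 over 11472 genes. With the replicate block, 3029 genes were called higher and 3062 lower, with 85 and 86 DEGs, 4725 genes differed from oeno>fru IR-2 and 6801 from oeno>fru IR, and fru stood at -0.685.

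With 2 libraries per group and 1 stock per hairpin, the differences describe these libraries. Genes under about 1 CPM rest on few counts.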

Other observations

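Further gene groups were noticed after their values were seen, and are given as values only. The genes of de novo purine synthesis named here were picked in that way, with no list behind them, so how many rose is no count over the pathway. Gart, a multifunctional enzyme gene of the pathway, counted 101 and 93.3 CPM in control and 548 and 561 CPM in oeno>fru IR-3, a log2 fold change of 2.52 (adjusted p = 2.8e-10 from edgeR). CG11089, which acts at its last steps, counted 131 and 134 CPM in control and 546 and 544 CPM in oeno>fru IR-3, and Prat2, an amidotransferase gene of its first step, 163 and 164 CPM in control and 422 and 429 CPM in oeno>fru IR-3. Pfas and Paics, of its middle steps, rose by 1.33 and 1.15 on the log2 scale, and pug, which supplies folate-bound carbon, by 1.72. Prat, the paralog of Prat2, went the other way, at 24.9 and 23.6 CPM in control and 19 and 17.3 CPM in oeno>fru IR-3. Leaving out oeno>fru IR-3 replicate 2 gave 2.51 for Gart and 1.38 for Prat2.

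A run of neighbouring lipid phosphate phosphatase genes on chromosome 3L was lower. CG11437 counted 70.1 and 71.2 CPM in control and 5.54 and 4.67 CPM in oeno>fru IR-3, CG11438 107 and 109 CPM in control and 11.3 and 10.2 CPM in oeno>fru IR-3 and CG11426 68.7 and 73.1 CPM in control and 6.3 and 7.27 CPM in oeno>fru IR-3, with log2 fold changes of -3.78, -3.33 and -3.39. Their neighbour CG11425 changed less, from 12.4 and 12.4 CPM to 6.3 and 6.96 CPM.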
